A study of Anableps anableps with 8 samples.

Results

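The genes described here encode the rod form of the light-signalling chain in the retina of the four-eyed fish Anableps anableps. They are the transducin genes GNAT1 and GNGT1, the phosphodiesterase genes PDE6A and PDE6B, the cyclic nucleotide-gated channel genes cnga1a, cnga1b and cngb1a, and the exchanger gene SLC24A1. They were chosen by gene symbol, and copies that carry the same symbol were kept apart by gene ID. The 8 symbols gave 10 genes of the 22934 in the gene table, because cngb1a and SLC24A1 each have 2 copies. One copy, cngb1a ENSABLG00000018518, held 0 UMIs in all barcodes. In rods its assigned UMIs were thus under 0.953 counts per 1000000 UMIs (CPM), taken from a floor of 3 counts. Whether its reads were given to the other cngb1a copy cannot be told from the files. The other 9 genes all held UMIs, from 4957 for GNGT1 to 52562 for PDE6A over all nuclei. How alike the copies are in sequence was not tested. If reads of the cngb1a, cnga1 or SLC24A1 copies were shared or split in the authors' counting, values of single copies are uncertain.

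As background, a photon absorbed in the rod outer segment leads to the activation of transducin, whose alpha subunit GNAT1 then relieves the inhibition of phosphodiesterase 6. The PDE6A and PDE6B catalytic subunits hydrolyse cyclic GMP, and the fall in cyclic GMP closes the channel built from CNGA1 and CNGB1 subunits. SLC24A1 is the sodium, calcium and potassium exchanger of the rod outer segment, which extrudes the calcium that entered through the channel. Cones run the same chain with their own paralogs, such as GNAT2 and PDE6C.

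The series profiled nuclei from whole retinas of adult fish by RNA sequencing of single nuclei, each marked by the combination of wells it passed through. Its labels gave 1 kind of sample, 8 technical sublibraries of a multiplexed pool, with no treatment, genotype or dissected region. Its design text described 5 biological replicates, and the gene-level matrix held 2 retina names and 2 sublibraries. Neither name matched a label, so they are called retina 1 and retina 2, are not taken as replicates, and no p-value was computed. All intervals are 95% intervals that cover counting error only.

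A minimum of 500 UMIs per barcode gave 3221 nuclei in retina 1 (median 3787 UMIs) and 3209 in retina 2 (median 4082 UMIs). No first-round well was shared between the retinas, and 99 combinations of wells occurred in nuclei of both sublibraries. Nuclei were clustered without the genes described here and without the rest of the pathway. The rod-like nuclei numbered 1683, in 3 clusters (824 in retina 1 and 859 in retina 2), and had a median of 1533 UMIs. They held rod markers at 8358 CPM, among them rom1b at 3169 CPM, and cone markers at 470 CPM, of which grk7b gave 367 CPM. The listed cone marker grk7b was thus higher than in cone-like nuclei, where it stood at 185 CPM. Among the listed rod markers, prph2b ran the other way, at 6.35 CPM in rod-like and 173 CPM in cone-like nuclei. The cone-like nuclei numbered 1792, in 5 clusters, with a median of 5014 UMIs. In 2 of these, with 401 nuclei, rod markers stood at 23.7% and 28.8% of the rod level, and 96.6% and 99.2% of the nuclei had high doublet scores. These are called the mixed cone clusters, and the results of the 9 genes in cones are given with and without them. In the other 3, with 1391 nuclei, rod markers were at 2.6% to 3.8% of the rod level. One of the rod clusters, with 180 nuclei, was shallow (median 830 UMIs) and stood apart from the deeper 2, which held 1503 nuclei. Its effect is described at the end. A further 857 nuclei stayed in unnamed clusters. Rod-like and cone-like nuclei are called rods and cones from here on.

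The transducin genes were present in rods of both retinas. GNAT1, the alpha subunit that carries the signal to phosphodiesterase, stood at 1784 CPM in rods of retina 1 and 1685 CPM in retina 2. GNGT1, the gamma subunit that helps to hold transducin at the disc membrane, stood at 422 and 413 CPM. The levels of the retinas were close for both genes. Over the 6 wells of each retina the GNAT1 level in rods ran from 1530 to 2352 CPM in retina 1 and from 1478 to 1932 CPM in retina 2, so the retinas overlapped.

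The phosphodiesterase genes, which encode the catalytic subunits, were also at like levels in both retinas. PDE6A stood at 4115 CPM in retina 1 and 4013 CPM in retina 2, and PDE6B at 3427 and 3425 CPM. These CPM values are not per transcript length, since no gene length was given, so they do not rank the genes by abundance. Between wells, PDE6A in rods averaged 4122 ± 175 CPM (SD over wells, n = 6 wells) in retina 1 and 4049 ± 488 CPM (SD, n = 6 wells) in retina 2.

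The channel genes were detected as 3 of their 4 gene IDs. cnga1a and cnga1b encode copies of the pore-forming channel subunit. Their levels in rods of retina 1 and retina 2 were 662 and 653 CPM for cnga1a, and 473 and 437 CPM for cnga1b. The modulatory subunit, cngb1a ENSABLG00000000696, stood at 2311 and 2404 CPM. Both copies of the exchanger gene were present in rods. SLC24A1 ENSABLG00000006792 stood at 879 CPM in retina 1 and 785 CPM in retina 2, and SLC24A1 ENSABLG00000016593 at 544 and 525 CPM.

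The retinas differed little in these genes. On the log2 scale, the CPM in rods of retina 2 over retina 1 ran from -0.16 to 0.06 over the 9 genes, and that of their sum was -0.03. The furthest from 0 was SLC24A1 ENSABLG00000006792 at -0.16 (-0.28 to -0.05), and its well levels overlapped, from 811 to 960 CPM in retina 1 and from 621 to 911 CPM in retina 2. Between the sublibraries the log2 ratios ran from -0.17 to 0.08. Summed, the genes made up 14468 CPM in rods (14336 to 14602).

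**Figure D1:**
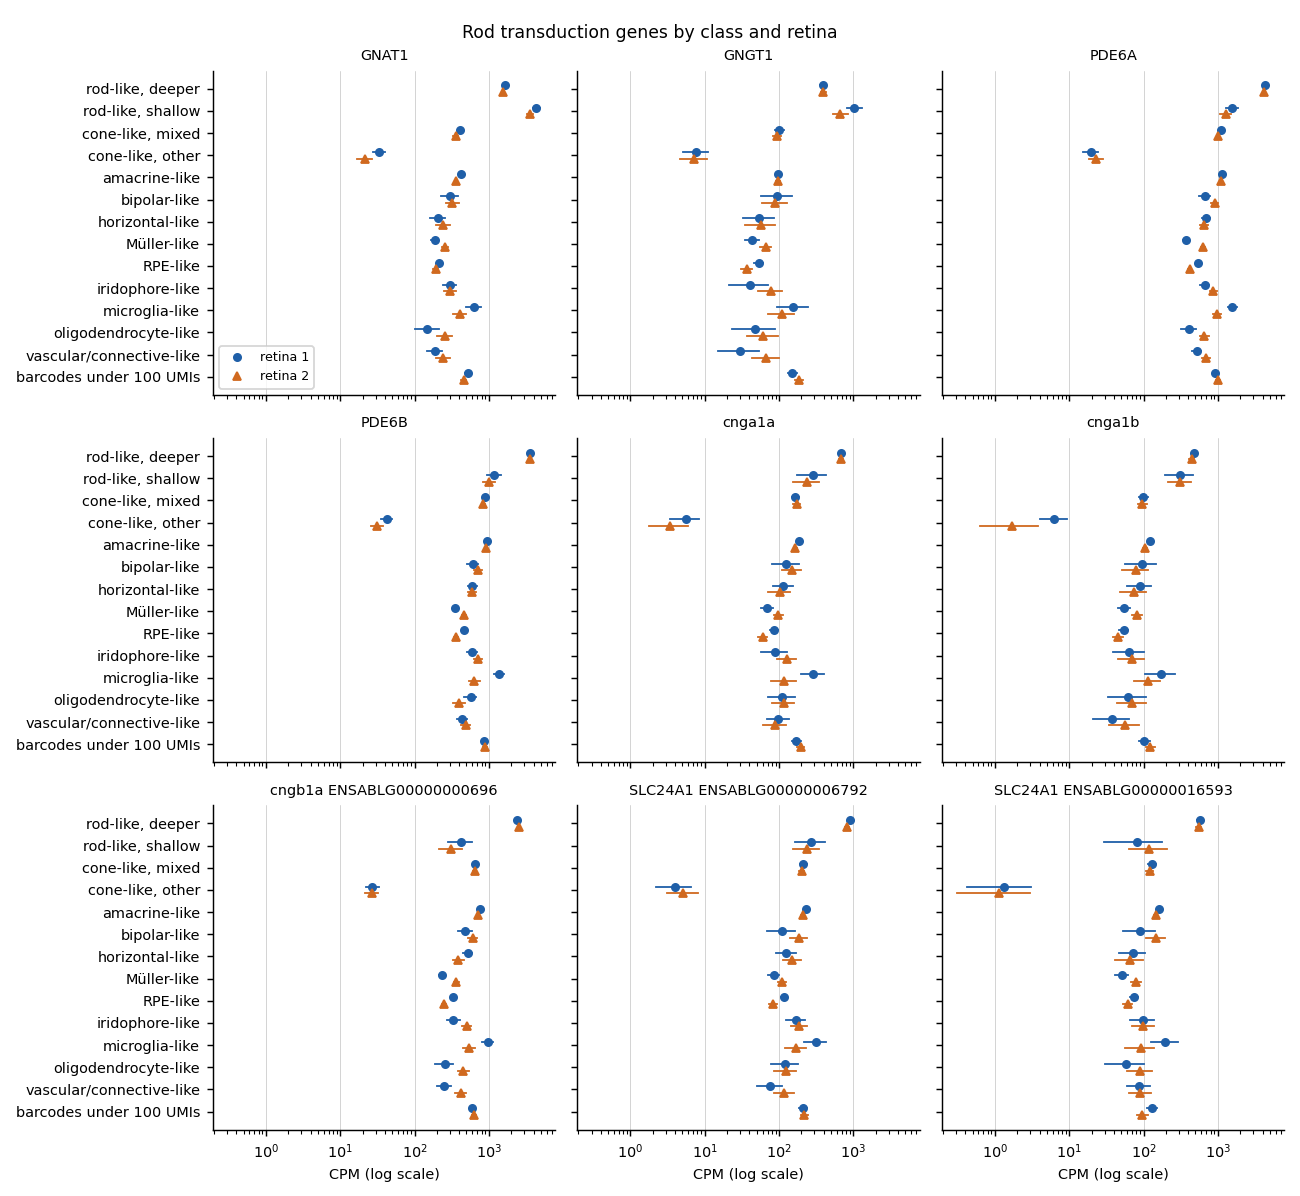
Level of each of the 9 detected genes (x axis, CPM, log scale) in each class of nuclei and in barcodes under 100 UMIs (y axis), with circles for retina 1, triangles for retina 2 and lines for 95% counting intervals. The deeper rod clusters hold the highest level of every gene except GNAT1 and GNGT1, which are highest in the shallow rod cluster, and the cone clusters other than the mixed ones hold the lowest.

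Depth differs between classes, so shares of nuclei with a UMI were compared after each nucleus was thinned to 500 UMIs. On that scale 97.9% of rods held a UMI of at least 1 of the genes (98.8% before thinning). PDE6A was found in 81.9% of thinned rods, PDE6B in 76.9%, cngb1a in 63.6% and GNAT1 in 51.5%. The others were found in fewer rods, from 18.2% for GNGT1 to 31.8% for SLC24A1 ENSABLG00000006792. In cones outside the mixed clusters, the share with any of these genes was 6.47% (34.8% before thinning, at a median of 4463 UMIs). Single genes were found in 1.01% of these cones for PDE6A, in 1.73% for GNAT1 and in 2.16% for PDE6B, the highest. The rod shares thus lay far above those of these cones. These cones were what remained once clusters with rod markers above 10% of the rod level were set apart. Other classes held more on the same scale. At least 1 of the genes was found in 82.5% of mixed cones, 61.2% of amacrine-like, 48.6% of bipolar-like and 46.2% of horizontal-like nuclei. PDE6A alone was found in 33.2% of amacrine-like nuclei.

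Thinned nuclei of the deeper rod clusters held a mean of 7.46 UMIs of these genes, and 4 of 1503 held none. The variance over nuclei was 1.19 times the binomial variance for the sum, and 1.03 to 1.21 times for single genes. With few UMIs per thinned nucleus, this ratio responds little to differences in level between nuclei. It thus does not show a common level. The shallow rod cluster held a mean of 3.88 UMIs, with none in 31 of 180 nuclei, and varied more, with a GNAT1 variance of 2.68 times the binomial variance. Cones outside the mixed clusters held a mean of 0.0733 UMIs, with none in 93.5% of nuclei and at most 3 in any.

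Co-detection in single rods was also near the level of independent detection. Over the 36 pairs of the 9 genes in the deeper rod clusters, the log2 odds ratio of finding both ran from -0.46 to 0.86, with a median of 0.09. The catalytic pair PDE6A and PDE6B was found together more often than independent detection gives, at 0.59 (0.09 to 1.09). GNGT1 with PDE6A gave 0.86 (0.19 to 1.52), and GNGT1 with SLC24A1 ENSABLG00000006792 gave -0.46. These were the only 3 pairs whose interval did not include 0, and the intervals were not adjusted for the number of pairs.

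**Figure D2:**
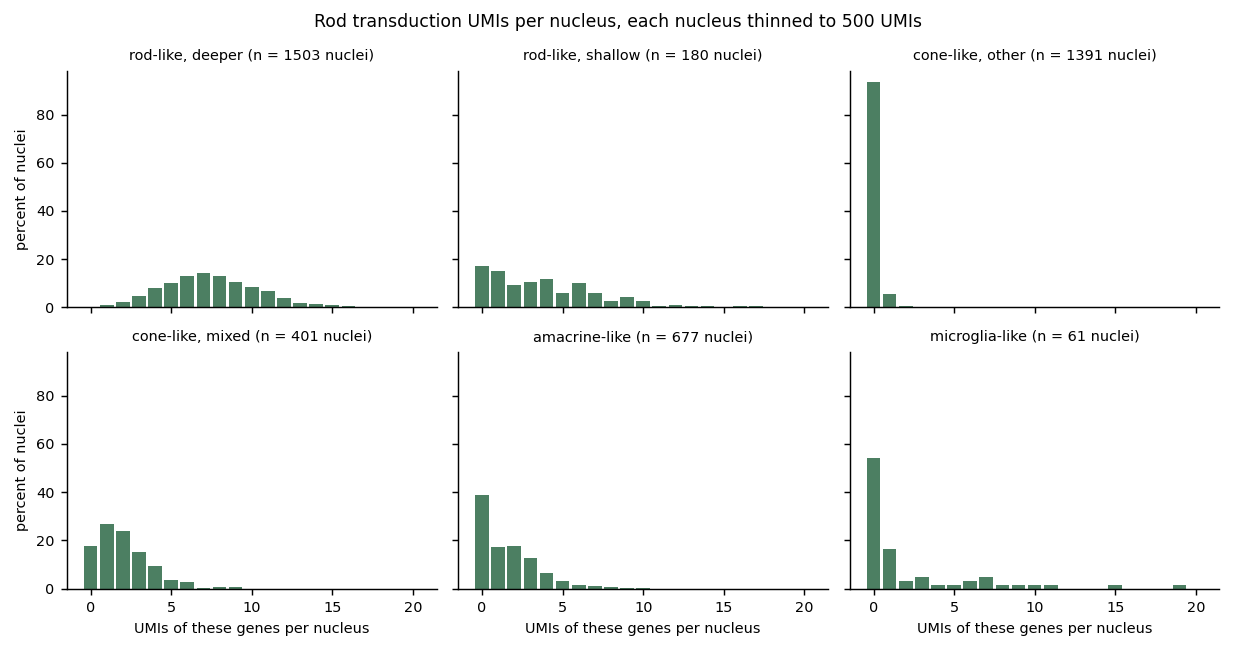
Number of UMIs of these genes per nucleus (x axis) against the percent of nuclei (y axis) in 6 classes, each nucleus thinned to 500 UMIs. The deeper rod clusters centre near their mean of 7.46 UMIs, the cones outside the mixed clusters sit at 0 in 93.5% of nuclei, and the shallow rod cluster, the mixed cones, the amacrine-like and the microglia-like nuclei lie between.

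Subunits of a complex were compared as ratios of their UMIs within rods. These are ratios of nuclear UMIs, not of transcript molecules per length or of proteins, and they serve only to compare classes. Within phosphodiesterase, PDE6B stood at 0.844 UMIs per UMI of PDE6A, or -0.24 (-0.28 to -0.21) as a log2 ratio. The single retinas gave -0.26 and -0.23. Within transducin, the log2 ratio of GNGT1 over GNAT1 was -2.05 (-2.14 to -1.96). Within the channel, cngb1a over the summed cnga1 copies gave a log2 ratio of 1.09 (1.03 to 1.15). For the copies, log2 cnga1b over cnga1a was -0.53 (-0.63 to -0.44), and log2 SLC24A1 ENSABLG00000016593 over ENSABLG00000006792 was -0.63. Between complexes, PDE6A over GNAT1 was 1.23 (1.18 to 1.28) on the log2 scale.

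All 9 genes were higher in rods than in cones. Counted as higher were genes with a 4-fold or larger ratio of CPM in both retinas, which 9 of the 9 met, against 5.96% of the 11826 genes counted. The log2 ratio of rods over all cones ran from 3.17 for cngb1a to 3.51 for cnga1b, with 3.42 (3.35 to 3.50) for GNAT1. The median over the 9 was 3.33, beside 0.14 over all genes counted. In the mixed cone clusters the sum of the genes was 3626 CPM, or 25.1% of the rod level.

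Without those clusters, cones held the sum at 134 CPM, or 0.93% of the rod level (147 CPM in retina 1 and 121 CPM in retina 2). Ratios of rods over these cones, on the log2 scale, then spread from 5.82 for GNGT1 and 5.97 for GNAT1 to 7.59 for PDE6A and 8.76 (7.83 to 9.89) for SLC24A1 ENSABLG00000016593. That last gene rested on 9 UMIs in these cones. All 9 genes still passed 4-fold in both retinas, against 7.97% of the 11223 genes counted. In these cones GNAT1 stood at 33.4 and 21.3 CPM in retina 1 and retina 2, PDE6A at 19.4 and 23.0 CPM, PDE6B at 42.0 and 31.3 CPM, and cngb1a at 27.1 and 26.7 CPM.

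The make-up of this low cone signal was not that of rods. GNAT1 held 20.5% of the UMIs of the genes in these cones and 12.0% in rods, and PDE6A held 15.7% and 28.1%. For PDE6B over PDE6A the log2 ratio was 0.80 in these cones, against -0.24 in rods, and the single retinas gave 1.11 (0.71 to 1.53) and 0.45 (0.017 to 0.88). For PDE6A over GNAT1 it was -0.38 (-0.70 to -0.07), against 1.23 in rods, but the retinas lay on both sides of 0, at -0.78 and 0.11. The mixed clusters kept close to the rod values, with -0.29 for PDE6B over PDE6A and 1.45 for PDE6A over GNAT1. Barcodes under 100 UMIs, read here as free RNA, gave -0.14 and 0.98 for the same log2 ratios. The part of free RNA and of joined nuclei in the cone signal was not tested.

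**Figure D3:**
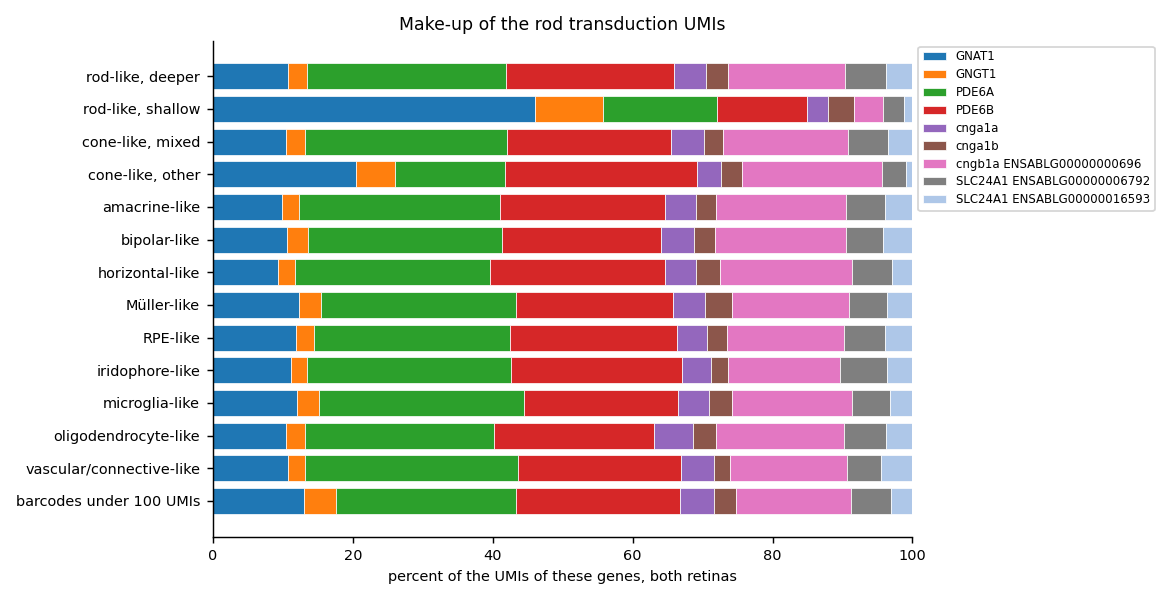
Percent of the UMIs of the 9 genes that each gene holds (x axis) in each class (y axis), over both retinas. The share of GNAT1 is 12.0% over all rods, 46.1% in the shallow rod cluster and 20.5% in the cones outside the mixed clusters, and it is 9.4% to 12.3% in the other named classes.

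Other genes of the pathway were counted by the same rule, from lists of rod, cone and shared genes. Of 35 genes counted, 10 were at least 4-fold higher in rods and 18 at least 4-fold lower in both retinas, and 6.86% of all genes counted were lower. In the rod list 4 of 5 were higher, and the other, GUCA1A, a guanylate cyclase activator, had a log2 ratio of 1.60. Without the mixed cone clusters GUCA1A was at 2.21, and all 5 were higher. In the cone list 11 of 12 were lower, and the other, SLC24A2 ENSABLG00000010199, was higher, at 2.50. Its second copy, SLC24A2 ENSABLG00000012575, had the opposite sign, at -6.62. Of the UMIs of SLC24A2 ENSABLG00000010199 in rods, 73 lay in the shallow cluster (399 CPM) and 80 in the deeper ones (27.0 CPM). Its place above 4-fold thus rests on the shallow cluster. The level in the deeper rods alone falls short of 4-fold over all cones. In the shared list 5 of 18 were higher and 7 lower.

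The largest ratios in the lists were close to those of the 9 genes. These ratios include the mixed cone clusters, where the sum of the 9 genes was 25.1% of the rod level. Such a signal limits how large a ratio can be, so their closeness is not read as a result about the genes. PDC, which encodes phosducin, a partner of the transducin beta and gamma subunits, stood at 159 CPM in rods and 13.2 CPM in cones, a log2 ratio of 3.59. RGS9BP ENSABLG00000018441, an anchor of the complex that switches transducin off, had a log2 ratio of 3.56. For pde6gb ENSABLG00000012632, a gene of the inhibitory phosphodiesterase subunit, the levels were 1488 and 131 CPM and the log2 ratio was 3.50. For gnb1a ENSABLG00000013145, a gene of the transducin beta subunit, the log2 ratio was 3.41. Without the mixed cone clusters these log2 ratios were 5.53 for PDC, 8.58 for RGS9BP ENSABLG00000018441, 6.43 for pde6gb and 7.06 for gnb1a.

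The smallest ratios included another copy of the anchor, RGS9BP ENSABLG00000010800, with 2 UMIs in rods and 741 in cones and a log2 ratio of -6.63 (-9.68 to -4.78) with no floor. With counts under 3 set to 3, its single retinas gave -4.73 and -5.33. The others were SLC24A2 ENSABLG00000012575, the cone channel gene cngb3.2 at -6.15, and rgs9a, which encodes a protein that speeds the shut-off of transducin, at -5.99. The cone paralogs GNAT2 and PDE6C stood at 15.6 and 27.0 CPM in rods, beside 453 and 1471 CPM in cones. Of 34 pathway genes counted without the mixed cone clusters, 12 were higher and 18 lower, and 7.51% of all genes counted were lower.

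**Figure D4:**
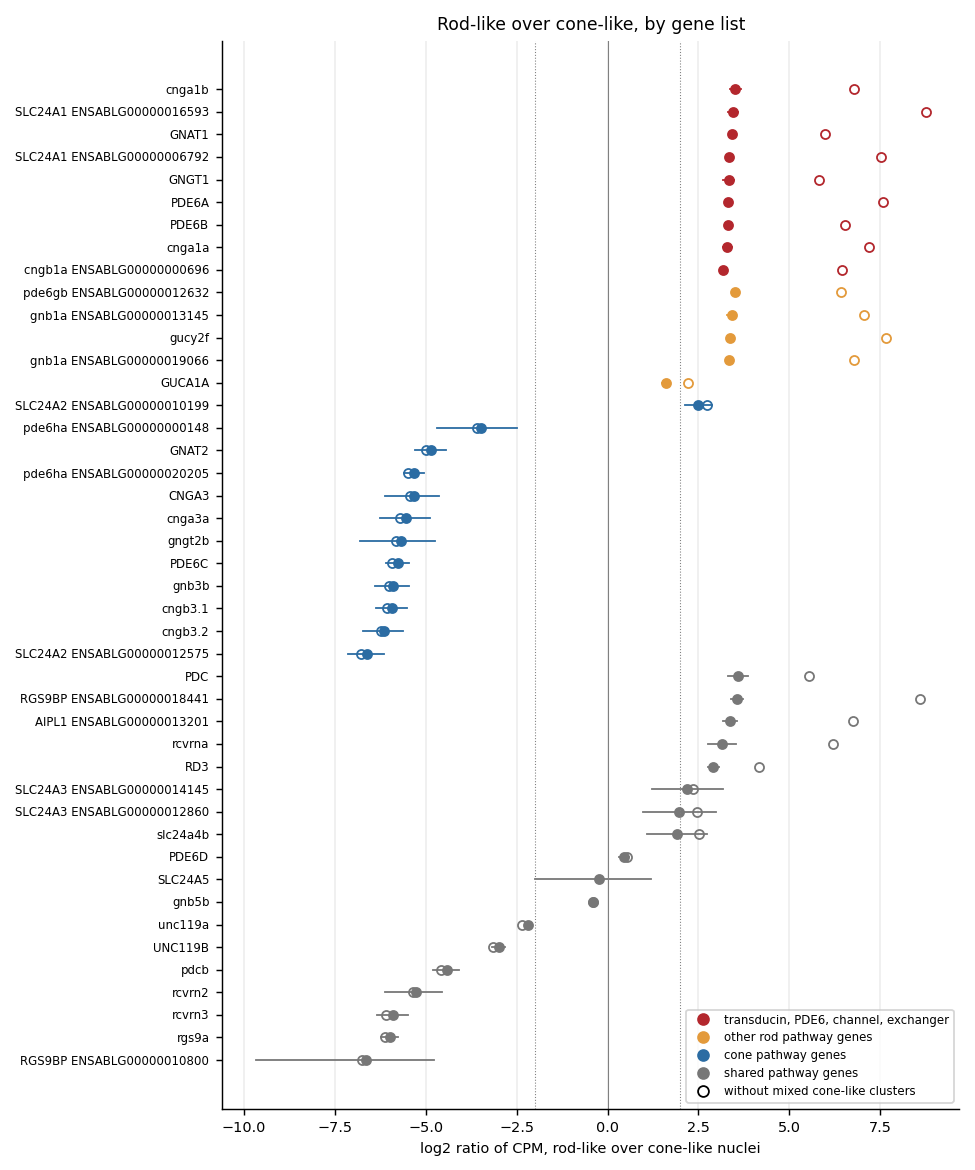
Log2 ratio of CPM in rods over cones (x axis) for the 9 genes and 35 further pathway genes (y axis), with filled points and 95% counting intervals for all cones, open points without the mixed cone clusters, and dotted lines at 4-fold. The 9 genes sit between 3.17 and 3.51 with all cones and between 5.82 and 8.76 without the mixed clusters.

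UMIs of the rod genes were found in every other named class of the retina. Their sum was 27.8% of the rod level in microglia-like nuclei, 27.1% in amacrine-like, 20.5% in bipolar-like, 16.6% in horizontal-like, 12.6% in Müller-like and 11.9% in nuclei like retinal pigment epithelium (RPE). Amacrine-like nuclei held 4052 CPM in retina 1 and 3810 CPM in retina 2, and Müller-like nuclei 1448 and 2150 CPM. Barcodes under 100 UMIs held 3670 and 3818 CPM, or 25.9% of the rod level. Rod markers that were used for naming were present too, at 20.3% and 26.4% of the rod level in the amacrine-like clusters and 13.3% in the Müller-like cluster.

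Rods against the 9 other named classes pooled gave log2 ratios of 2.07 to 2.44 for the 9 genes, with a median of 2.26, beside -0.28 over all genes counted. All 9 passed 4-fold in both retinas, and 0.603% of the 16250 genes counted did. With all nuclei kept, the make-up in the pooled classes was near that of rods. Most UMIs of the 9 genes in this pool were from amacrine-like nuclei, 84.6% of which had high doublet scores. Without high doublet scores the difference from rods in PDE6A over GNAT1 reversed in sign, as given below. Log2 PDE6B over PDE6A was -0.29 there, ranging from -0.41 to -0.17 over the classes, and that of PDE6A over GNAT1 was 1.47, ranging from 1.18 to 1.58.

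These levels differed between nuclei with high and low doublet scores. The scores were computed on all genes, the rod genes included, so the split is not independent of them. Nuclei of high score were also deeper in amacrine-like (median 15681 beside 3044 UMIs), Müller-like (10292.5 beside 4193 UMIs) and RPE-like nuclei (12532.5 beside 4808 UMIs). The part of depth in this split was not tested. In amacrine-like nuclei the sum was 27.6% of the rod level at high scores (573 nuclei) and 3.46% at low scores (104 nuclei). In Müller-like nuclei the values were 16.6% and 1.67%, and in RPE-like nuclei 13.5% and 0.868%. Microglia-like nuclei ran the other way, at 21.2% in 42 nuclei of high score and 95.4% in 19 nuclei of low score. The pooled other classes stood at 21.3% of the rod level with all nuclei, at 3.00% without high doublet scores, and at 2.83% without nuclei whose rod marker level was above 10% of the rod median. Leaving out nuclei by their rod markers is not independent of the other rod genes either.

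The make-up also differed with the score in Müller-like nuclei. In Müller-like nuclei of low score GNAT1 stood at 86.9 CPM, or 5.02% of its rod level, PDE6A at 43.5 CPM, or 1.07%, and cngb1a at 19.9 CPM, or 0.844%. In those of high score the 3 genes stood at 276, 681 and 411 CPM, or 16.0%, 16.8% and 17.4% of their rod levels. In Müller-like nuclei the 3 genes were thus at like shares of their rod levels at high scores, while the share of GNAT1 was above the others at low scores. The genes lay closer together in amacrine-like nuclei. There the log2 ratio of high over low score was 2.56 (2.04 to 3.14) for GNAT1, 3.19 (2.80 to 3.59) for PDE6A and 2.99 (2.54 to 3.46) for cngb1a. In RPE-like nuclei these log2 ratios were 2.96, 4.40 and 4.38. What sets the rod signal in these classes was not tested.

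Of all other genes, 5 had profiles most like the mean profile of the 9, by Pearson's correlation of log2(CPM + 10) over 22 sums of class and retina, which share libraries and free RNA. They were ENSABLG00000016025, with no name in the gene table, at r = 0.994, gnb1a ENSABLG00000019066 at 0.992, gc2 at 0.992, rom1b, which encodes a disc rim protein, at 0.991, and sagb, an arrestin gene, at 0.991. The 9 genes themselves gave r of 0.976 to 0.992 with their mean profile, of which each is a part, so high values are built in. Since rom1b and sagb were among the rod markers used to name the classes, their high values are partly built in too. ENSABLG00000016025 stood at 15987 CPM in rods.

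Within rods, the shallow cluster held more GNAT1 and GNGT1 than the deeper ones and less of the other 7 genes. GNAT1 was higher there, at 4355 and 3578 CPM in retina 1 and retina 2 beside 1645 and 1555 CPM in the deeper clusters, a log2 ratio of 1.29 (1.17 to 1.40). GNGT1 was also higher, at 1035 and 671 CPM beside 389 and 396 CPM, a log2 ratio of 1.06. Both genes lay above the deeper clusters in both retinas. The gnb1a copies of the beta subunit were not higher there, at -1.04 for ENSABLG00000013145 and -0.22 for ENSABLG00000019066. Both copies lay above the median of -1.37 over all genes counted.

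The catalytic phosphodiesterase, channel and exchanger genes were lower in the shallow cluster. PDE6A stood at 1546 and 1269 CPM in retina 1 and retina 2 beside 4253 and 4201 CPM, a log2 ratio of -1.61, and PDE6B had a log2 ratio of -1.72. The channel gene cngb1a stood at 417 and 313 CPM beside 2413 and 2547 CPM, a log2 ratio of -2.81. The others ran from -0.57 for cnga1b to -2.43 for SLC24A1 ENSABLG00000016593. Log2 PDE6A over GNAT1 was -1.49 (-1.71 to -1.29) in the shallow cluster and 1.40 in the deeper ones, and GNAT1 held 46.1% and 10.8% of the UMIs of the 9 genes. For cngb1a over the summed cnga1 copies the log2 ratios were -0.68 (-1.15 to -0.22) and 1.12.

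Most genes counted were lower in the shallow cluster. Of 1131 genes counted, 52.2% were at least 2-fold lower in both retinas and 9.37% at least 2-fold higher, with a median log2 ratio of -1.37. Of the 9 genes, 6 were at least 2-fold lower and 1, GNAT1, at least 2-fold higher in both retinas. The count of lower genes is read against that background: PDE6A, PDE6B, cnga1a and SLC24A1 ENSABLG00000006792 lay near the median, cngb1a and SLC24A1 ENSABLG00000016593 below it, and cnga1b above it. GNAT1 and GNGT1 lay on the other side of 0, as did pde6gb ENSABLG00000012632, of the inhibitory subunit, at 0.40. PDC had a log2 ratio of 2.76, and the median over the 9 rod markers counted was -0.20. Single rod markers went both ways. NRL stood at -1.76, grk1a ENSABLG00000012148 at -1.35, rom1b at -1.33 and NR2E3 ENSABLG00000016548 at -0.83. Nearer 0 were sagb at -0.20 and rom1a at -0.09, while GUCA1B stood at 0.20 and saga at 0.70. The guanylate cyclase gene gucy2f, which makes cyclic GMP, stood at -2.70.

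Depth and other signals differed between these rod clusters. The shallow cluster was led by genes that included MALT1, PDC and mbpa, held cone markers at 765 CPM beside 436 and 467 CPM in the deeper clusters, and had high doublet scores in 31.1% of nuclei beside 0.930% and 10.7%. Over all rods most of the cone marker signal was grk7b. Of 2 cone markers counted, 1 was at least 2-fold higher in the shallow cluster and 1 at least 2-fold lower. Both genes counted from the list of cone pathway genes were higher in the shallow cluster. SLC24A2 ENSABLG00000010199 stood at 399 CPM beside 27.0 CPM, and pde6ha ENSABLG00000020205 at 289 CPM beside 18.2 CPM. The excess of SLC24A2 ENSABLG00000010199 in all rods over all cones leans on this same cluster. Whether its level there is cone signal was not tested. GNAT2, which had too few UMIs to be counted, stood at 131 CPM beside 8.43 CPM. Among rods under 1000 UMIs only, a comparison chosen after seeing the data, the medians were 698 UMIs in the shallow cluster and 832 UMIs in the deeper clusters. The log2 ratio was then 0.88 (0.63 to 1.13) for GNAT1, -1.69 for PDE6A and -2.83 for cngb1a. Without high doublet scores the values were 1.35, -1.70 and -3.09. The direction was thus the same at closer depth and without high scores, for these 3 genes. Sizes moved for some of the others. Among rods under 1000 UMIs cnga1b stood at -1.48 (-2.29 to -0.75), beside -0.57 in all rods. PDE6B stood at -2.34, beside -1.72. The place of cnga1b above the median of all genes counted is thus given for all rods only. What part the remaining depth and marker differences have in these ratios was not tested.

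**Figure D5:**
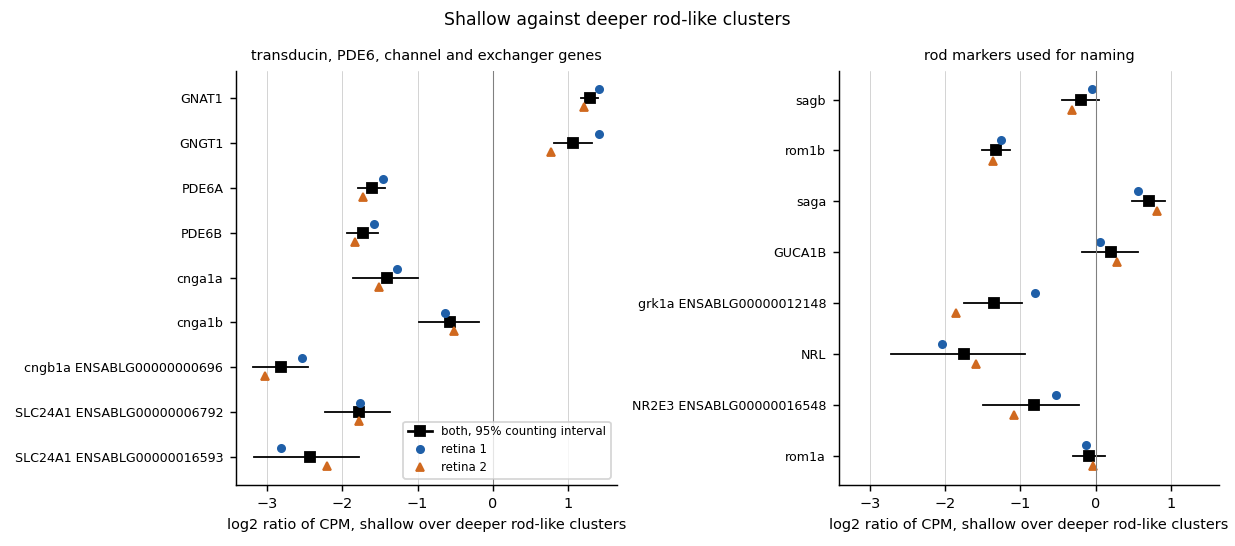
Log2 ratio of CPM in the shallow over the deeper rod clusters (x axis) for the 9 genes (left) and for 8 of the rod markers counted (right), with squares and 95% counting intervals for both retinas together, circles for retina 1 and triangles for retina 2. GNAT1 (1.29) and GNGT1 (1.06) are above 0 in both retinas, and PDE6A (-1.61), PDE6B (-1.72) and cngb1a (-2.81) are below 0 in both.

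The deeper rod clusters differed less from each other. In the one of greater depth (median 2235 UMIs) over the other (median 1406 UMIs), GNAT1 had a log2 ratio of 0.26 (0.17 to 0.34), with 0.26 and 0.27 in the retinas, and cngb1a one of -0.15. The other 7 genes ran from -0.12 to 0.13.

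Rods were also split by UMIs of the dorsal factor genes tbx5 and the ventral factor genes vax. Of the rods, 420 were vax-marked, 22 tbx5-marked and 1237 held neither, and 4 held UMIs of both. The summed log2 ratio of vax-marked over unmarked rods was 0.01 (-0.02 to 0.04), and single genes ran from -0.12 for GNAT1 to 0.12. Without the shallow cluster the GNAT1 value was -0.00 (-0.09 to 0.09). In tbx5-marked over vax-marked rods the sum gave -0.07 (-0.17 to 0.04). GNAT1 gave -0.45 (-0.81 to -0.11), with -0.56 and -0.36 in the retinas, on 72 UMIs in the tbx5-marked rods, and SLC24A1 ENSABLG00000006792 gave 0.43 (0.04 to 0.80). Furthest from 0 was cnga1b at -0.69 (-1.45 to -0.01), with -0.67 and -0.74 in the retinas, on 18 UMIs in the tbx5-marked rods. Without the shallow cluster cnga1b gave -0.66 (-1.42 to 0.02), GNAT1 -0.47 (-0.85 to -0.12) and SLC24A1 ENSABLG00000006792 0.43 (0.04 to 0.80). The intervals were not adjusted for the number of genes. Marked rods were deeper, with medians of 1871 UMIs for vax and 2507 UMIs for tbx5 beside 1449 UMIs for neither, and the part of depth was not tested.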

How the data were processed

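Per the file headers, the deposited matrix holds UMI counts of each gene in each barcode, not normalized. It was checked that the sums of all 119839 barcodes equal the transcript counts of the deposited barcode table. For the aligner, genome build and annotation, names were not given in the sources used here. Summed counts are 58447723 UMIs, and 107803 barcodes held under 100 UMIs. A table of totals for further retina names, with no counts per gene, was not used. The number of per-sample columns not used was 0.

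Barcodes with at least 500 UMIs (6430) were clustered with scanpy 1.11.5 (Python 3.11.15, numpy 2.4.6, scipy 1.17.1, igraph 0.11.9), using 2488 variable genes, 40 principal components, 15 neighbours and Leiden resolution 1. The genes described, the other pathway genes and the tbx5 and vax genes were kept out of clustering. A cluster took the name of the class with the most markers at a fold of at least 2 and in at least 10% of nuclei, with at least 3 markers. Doublet scores were computed per sublibrary with Scrublet on all genes, and the thresholds of 0.0520 and 0.0471 marked 39.5% and 41.6% of nuclei. Doublets were not removed from the main values.

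Counts were summed per class and retina. CPM values have exact Poisson intervals, and ratios have conditional Clopper-Pearson intervals at 95%. A gene was counted in a contrast with 10 or more UMIs over both classes in each retina, and counts under 3 were set to 3 in the ratios of single retinas. For the rod clusters the 10 UMIs were those that the mean of both CPM values would give in the shallow cluster.

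Genes named are the 10 chosen genes, the 4 largest and 4 smallest rod-over-cone ratios of the pathway lists, and the 5 most alike genes of at least 50 CPM in rods. Cluster markers and genes of the pathway named beyond this were picked with their values in view. The results of 1 gene are left out here. The genes, lists and tests were chosen with earlier results of these data known. Alternatives were a minimum of 1000 UMIs, resolutions 0.5 and 2, thinning to 500 UMIs, and leaving out a retina, high doublet scores, admixed nuclei or single clusters.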

Additional observations from a re-analysis of the deposited data

How the results depend on the processing

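All values below are for the summed genes unless named. The level in rods (14468 CPM) was 12370 CPM at resolution 0.5, 14637 CPM without high doublet scores, 14162 CPM after thinning to 500 UMIs, 14250 CPM as a mean over nuclei, 14840 CPM without the shallow cluster, and 14340 to 14619 CPM leaving out either retina. The log2 ratio of rods over cones (3.31) was 3.65 at resolution 0.5, 6.59 without high doublet scores, 3.80 after thinning, 7.06 without nuclei holding a marker of the other photoreceptor, 6.75 without the mixed clusters, 3.35 without the shallow cluster, and 3.24 to 3.39 leaving out either retina. The pooled other classes (21.3% of the rod level) were at 21.1% with 1000 UMIs, 25.0% at resolution 0.5, 21.5% at resolution 2, 3.00% without high doublet scores, 14.7% after thinning, 2.83% without admixed nuclei, 20.8% without the shallow cluster, and 21.1% to 21.4% leaving out either retina.

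The log2 ratio of PDE6A over GNAT1 in those classes minus that in rods (0.24) was 0.20 with 1000 UMIs, 0.30 after thinning, 0.065 without the shallow cluster, 0.20 to 0.27 leaving out either retina, and reversed to -0.76 without high doublet scores and -0.52 without admixed nuclei. In all cones the same difference reversed to -0.033 at resolution 0.5, -1.21 without high doublet scores, -0.84 without admixed nuclei and -0.065 without the shallow cluster. The log2 ratio of vax-marked over unmarked rods (0.01) was -0.22 at resolution 0.5, 0.056 after thinning and -0.028 without the shallow cluster. The cause was not tested. The mixed and shallow clusters were singled out after seeing the data. The log2 ratio of PDE6B over PDE6A in rods and the count of 9 genes 4-fold higher than in cones kept their direction in each alternative run.

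No paired analysis was possible because the sublibrary numbers of the labels match no column of the matrix and no result comes from a test. With 2 unmatched retina names, variation between animals was not measured. Thinning and the floor of 3 counts limit genes with few UMIs in cones, above all SLC24A1 ENSABLG00000016593.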

Other observations

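An unnamed cluster of 202 nuclei, led by the short-wave cone opsin gene opn1sw1, held the rod transduction genes at 187 CPM in all, or 1.29% of the rod level. Other unnamed clusters stood at 31.5%, 23.4% and 8.62% of it. In microglia-like nuclei thinned to 500 UMIs, 54.1% held no UMI of these genes and 19.7% held 5 or more, with a mean of 4.42 UMIs in the 19 nuclei of low doublet score and 1.26 UMIs in those of high score. Blood-like nuclei numbered 10 and held 4 UMIs of the genes.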
